A study of Mus musculus with 6 samples.

Results

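The genes described here are the collagens, laminins, fibulins, fibrillins and integrins, together with the ADAMTS proteases, the matrix metalloproteinases (MMPs) and the tissue inhibitors of metalloproteinases (TIMPs). They were picked by the pattern of their gene symbols, with no measured value in the rule, and 132 of the 23955 genes in the files matched. The genes, families and lists used here were chosen with earlier results of these data known. The 132 comprise 44 collagen chains, 11 laminin chains, 21 integrin chains, 4 fibulins, 2 fibrillins, 19 ADAMTS proteases, 23 MMPs and 4 TIMPs. The other 4, Col4a3bp, Itgb1bp1, Itgb1bp2 and Itgb3bp, matched by symbol only: they are named after a collagen or integrin chain that their protein binds and are not chains themselves. They were kept in the counts over the 132 genes and out of every family.

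The study compared mRNA on the ribosomes of astrocytes between 2 regions of the adult mouse brain, the diencephalon and the cortical grey matter, with 3 libraries from each. In the Ribotag method a Cre recombinase switches a ribosomal protein to a tagged form in 1 cell type, and the tagged ribosomes are pulled down with their mRNA. The diencephalon was taken without the zone around the third ventricle, and the cortical grey matter without meninges and white matter. The series title links diencephalic astrocytes to Smad4, but the 6 libraries differed by region only.

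All animals in both groups were C57BL/6 mice of both sexes aged 3 months. They carried 3 engineered loci: Slc1a3tm1(cre/ERT2)Mgoe, which makes the tamoxifen-dependent Cre; B6N.129-Rpl22 tm1.1Psam/J, which holds the tag; and the reporter Tg(CAG-cat,-EGFP)1Rbns/KrnzJ from an FVB.B6 line. Their genotype was Slc1a3 +/-, GFP+ and Rpl22HA fl/fl, so that the diencephalon and the cortical grey matter groups shared every allele. All received tamoxifen by oral gavage from 9 weeks of age, 3 times at intervals of 48 h. The tag was switched on wherever the Slc1a3 gene drove Cre, and 1 of the 2 Slc1a3 alleles carried the Cre insertion. Each library was made from the pooled tissue of 3 mice, so the spread between libraries is one between pools. RNA from the tissue before the pull-down was not analysed here.

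As background, the extracellular matrix of most tissues rests on collagen fibrils and on the basement membrane, a sheet of laminins and type IV collagen that in the brain lies around blood vessels and under the meninges. Cells hold on to it through integrins, receptors of 1 alpha and 1 beta chain, and astrocyte endfeet face the laminins of the vessel wall. MMPs and ADAMTS proteases cut matrix proteins and TIMPs inhibit MMPs. The bulk of the adult brain's matrix is made of hyaluronan and proteoglycans rather than of collagen fibrils, and many ADAMTS enzymes cut those proteoglycans.

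Totals of expected counts ran from 1840344 to 2078793 in diencephalon and from 1733145 to 2334237 in cortical grey matter. The third cortical grey matter library stood apart from the other two, since its counts gave 7.47 and 6.48 against them in a chi-square test (value over degrees of freedom), where the other replicate pairs lay between 2.71 and 3.64. Among the 18 meningeal and fibroblast markers, 13 passed the filter on low counts and all 13 were lower in diencephalon. Their sum over all 18 was 563.2 to 800.0 CPM (the gene's counts scaled to a common library size) in diencephalon and 1796 to 2890 CPM in cortical grey matter, and Slc47a1 and Crabp2 had no count in diencephalon. The 10 cortical excitatory neuron markers were all lower in diencephalon (693.5 to 1068 CPM in sum, against 4988 to 5873 CPM), and 6 of 7 tested subcortical neuron markers of 12 were higher (547.4 to 689.3 CPM, against 129.6 to 157.8 CPM, with Th, Pmch, Hcrt and Avp without a count in cortical grey matter). Oligodendrocyte markers were higher for 8 of 9 tested of 10 (1785 to 2395 CPM in diencephalon and 844.7 to 1059 CPM in cortical grey matter). Ependymal and choroid plexus markers were higher for 4 of 5 tested of 10 (142.2 to 173.0 CPM, against 6.21 to 37.8 CPM, with Kcne2 and Tmem212 without a count in cortical grey matter). The 10 astrocyte markers summed to 16760 to 19300 CPM in diencephalon and 25800 to 32500 CPM in cortical grey matter, with 1 higher and 5 lower in diencephalon. Slc1a3, the gene that drives Cre, had 720.5, 738.7 and 782.9 CPM in diencephalon and 1140.5, 1258.5 and 742.8 CPM in cortical grey matter (edgeR adjusted p = 0.0244, lost on the TPM scales at 0.371 to 0.422 and on leaving out any library but the third cortical one at 0.0637 to 0.157), and the tagged gene Rpl22 had 22.9 ± 3.27 and 27.2 ± 4.01 CPM (SD, n = 3 each; edgeR adjusted p = 0.474). In such bulk libraries fewer cells of a type and less RNA per cell cannot be told apart.

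Of the 132 genes, 68 had enough counts to be tested, 64 did not, and 17 of the 64 had no count in any library. In diencephalon 14 of the 68 were higher and 17 lower, at an adjusted p under 0.05 in edgeR's quasi-likelihood test. That is 45.6% called, against 29.6% of all 10568 genes tested (14.9% higher and 14.8% lower). The median log2 difference, diencephalon minus cortical grey matter, was -0.01 over the 68 genes and 0.01 over all genes tested. A change beyond 1.5-fold was called for 5 of them upward and 11 downward, against 4.58% and 5.41% of all genes (9.99% in either direction).

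By family, structural matrix genes were called more often on the lower side: 7 collagens, 3 laminins and 1 fibulin were lower in diencephalon, while 2 collagens, no laminin and 1 fibrillin were higher. Among proteases, 6 ADAMTS genes were higher and 2 lower, and 1 MMP went each way. Among integrins, 3 chains were higher and 3 lower. Without the third cortical grey matter library the 14 higher genes stayed 14 in number and the 17 lower became 19, of which 9 were collagens, 4 laminins, 4 integrins and none ADAMTS proteases. That fit tested 75 of the 132 genes. Over all genes it called 1681 higher and 1692 lower of 11063 tested, against 1574 and 1559 of 10568 with all libraries. On the deposited TPM (the authors' level scaled by length and library), where the median of all genes shifted to 0.22 on the log2 scale, the split was 16 higher and 10 lower with limma on log2(TPM + 1). That fit tested 92 of the 132 genes and 14296 of all genes, against 68 and 10568 in the counts.

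**Figure D1:**
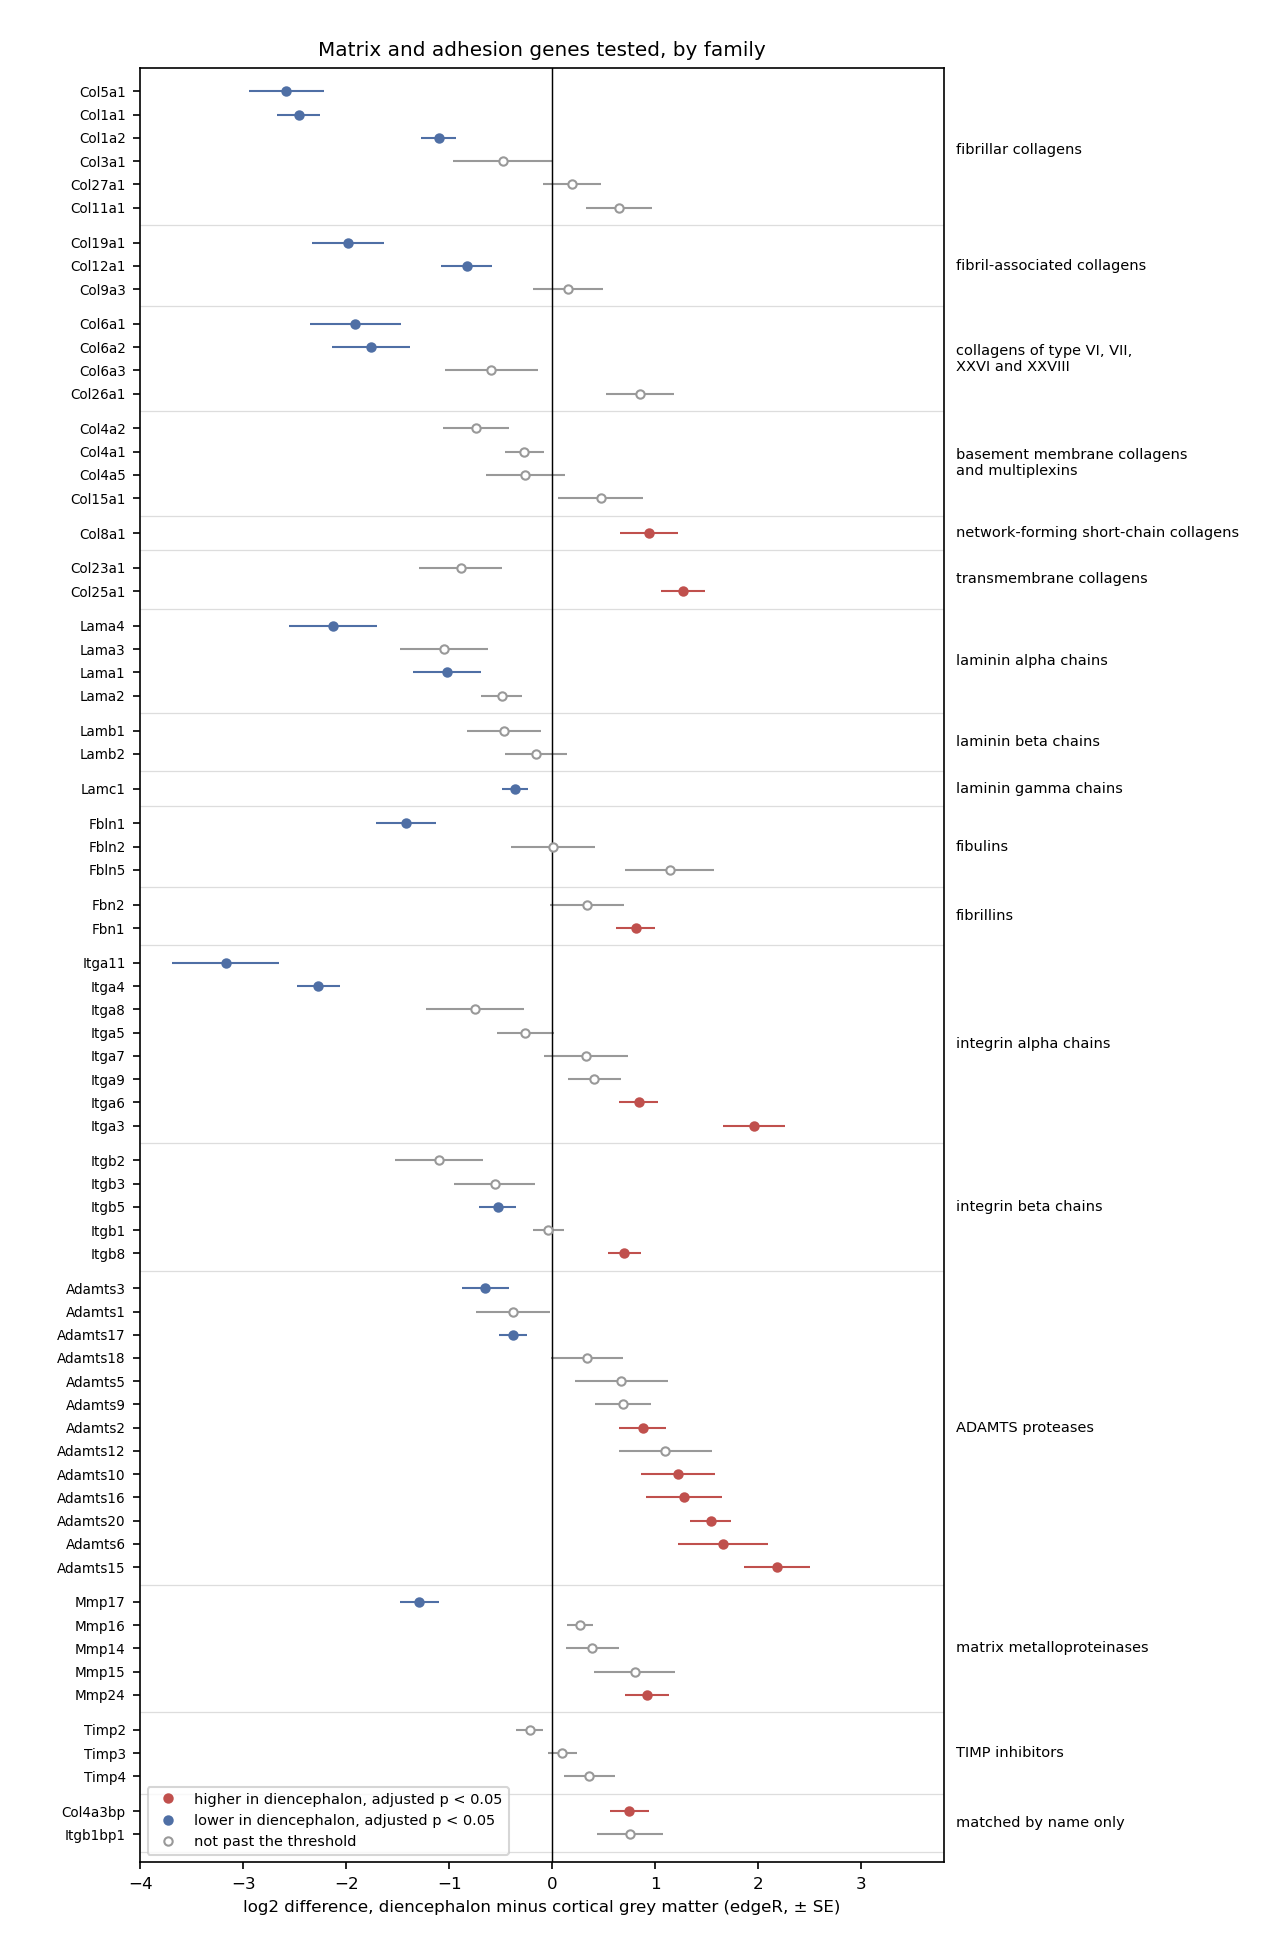
Log2 difference, diencephalon minus cortical grey matter, with its standard error, for the 68 genes tested, grouped by family from top to bottom. Filled red points are higher and filled blue points lower in diencephalon at an edgeR adjusted p under 0.05, and open points did not pass. Collagens make up 7 of the 17 blue points and 20 of the 68 genes. ADAMTS proteases make up 6 of the 14 red points and 13 of the 68 genes.

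Promoter sequences are shown for 4 of the called genes, Adamts20 and Col25a1 (higher in diencephalon) and Col5a1 and Itga4 (lower), so that a protease, a neuronal collagen, a fibrillar collagen and an integrin chain can be set side by side. Each is the 250 bases upstream of the start in the RefSeq table of build GRCm38.p6, read 5′ to 3′ on the gene's strand, and none overlaps an annotated exon. RefSeq windows were matched by symbol for 95 of the 132 genes and for 19 of the 31 called ones; Col1a1 is named only. The windows are chr15:94404351-94404600 on the minus strand for Adamts20, chr3:130180595-130180844 on the plus strand for Col25a1, chr2:27886175-27886424 on the plus strand for Col5a1 and chr2:79255176-79255425 on the plus strand for Itga4. Capitals mark a CCAAT box, spelled CCAAT or ATTGG, and a GC box, spelled GGGCGG or CCGCCC, so that both strands are covered.
Adamts20: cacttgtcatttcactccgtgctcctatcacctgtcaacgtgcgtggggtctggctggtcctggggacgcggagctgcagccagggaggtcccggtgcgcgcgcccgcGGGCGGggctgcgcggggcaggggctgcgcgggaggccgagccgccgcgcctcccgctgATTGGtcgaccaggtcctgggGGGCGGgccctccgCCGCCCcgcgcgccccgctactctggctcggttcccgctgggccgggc
Col25a1: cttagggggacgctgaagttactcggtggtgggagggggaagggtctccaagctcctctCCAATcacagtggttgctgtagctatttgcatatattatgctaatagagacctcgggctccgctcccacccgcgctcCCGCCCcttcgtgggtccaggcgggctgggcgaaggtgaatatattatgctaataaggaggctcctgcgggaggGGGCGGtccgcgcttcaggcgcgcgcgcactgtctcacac
Col5a1: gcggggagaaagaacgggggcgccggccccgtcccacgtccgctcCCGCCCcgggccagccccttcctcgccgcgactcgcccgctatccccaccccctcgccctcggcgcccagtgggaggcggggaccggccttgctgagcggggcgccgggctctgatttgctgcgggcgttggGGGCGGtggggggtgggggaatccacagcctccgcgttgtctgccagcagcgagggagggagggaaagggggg
Itga4: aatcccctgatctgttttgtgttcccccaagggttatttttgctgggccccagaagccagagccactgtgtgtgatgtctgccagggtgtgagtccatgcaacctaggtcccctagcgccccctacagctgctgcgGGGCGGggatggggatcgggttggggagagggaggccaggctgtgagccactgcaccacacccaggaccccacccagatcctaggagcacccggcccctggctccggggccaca
The Adamts20 window held 1 CCAAT box and 3 GC boxes, and the Col25a1 window 1 CCAAT box and 2 GC boxes. The Col5a1 window held 2 GC boxes and the Itga4 window 1, and neither held these CCAAT letters. Of all 32851 windows of this length in the table, 33.8% held a CCAAT box and 32.7% a GC box. Among called genes with a window, a GC box stood in 7 of 8 higher in diencephalon and in 7 of 11 lower, and a CCAAT box in 4 of 8 and 2 of 11. A gene was counted there if any of its windows held the box. The shares over all windows count each window alone, so the 2 measures cannot be set against each other. The deposited counts were made on mm9, a different build, and the split of the boxes by direction was not tested.

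Fibrillar collagens were lower in diencephalon for 3 of the 6 tested of 11 and higher for none. Col1a1, the major chain of type I collagen, the main fibril of skin, bone and meninges, had 33.7, 27.9 and 21.4 CPM in diencephalon, against 118.7, 204.4 and 139.1 CPM in cortical grey matter. The regions were far apart, and it was 5.52-fold lower in diencephalon (log2 -2.46 ± 0.21 SE, edgeR adjusted p = 4.39e-08). Col1a2, the second chain of the same trimer, had 40.7, 36.4 and 33.4 CPM in diencephalon and 76.4, 87.3 and 74.5 CPM in cortical grey matter. It was 2.15-fold lower, again without overlap (log2 -1.10 ± 0.17 SE, edgeR adjusted p = 3.32e-05). Per length, the chains stood at 22.3 ± 4.65 TPM for Col1a1 and 27 ± 2.31 TPM for Col1a2 in diencephalon, and at 108 ± 29.1 TPM for Col1a1 and 50.6 ± 3.42 TPM for Col1a2 in cortical grey matter (SD over n = 3 libraries of each region). Ranges of the 2 chains overlapped in diencephalon, at 17.4 to 26.7 TPM for Col1a1 and 24.8 to 29.4 TPM for Col1a2, and did not in cortical grey matter, at 84.2 to 140.1 and 48.0 to 54.5 TPM. The trimer is built from 2 chains of Col1a1 and 1 of Col1a2.

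Col5a1, a chain of type V collagen, which sits inside type I fibrils and sets their width, had 1.87, 8.44 and 6.79 CPM in diencephalon and 34.0, 43.1 and 23.6 CPM in cortical grey matter. Every diencephalon library lay below every cortical one, and the gene was 5.99-fold lower (log2 -2.58 ± 0.36 SE, edgeR adjusted p = 1.58e-05). Its partner chain Col5a2 had too few counts to be tested, with 2.11 to 6.55 CPM in diencephalon and 2.48 to 3.49 CPM in cortical grey matter. Col3a1, the type III chain often found with type I, did not pass (3.69 to 8.89 CPM in diencephalon, 3.49 to 14.9 CPM in cortical grey matter; edgeR adjusted p = 0.484), nor did Col11a1 and Col27a1. All 11 fibrillar chains together summed to 118 ± 12.5 CPM in diencephalon and 307 ± 64.1 CPM in cortical grey matter (SD, n = 3 each), most of it from the type I chains. The 3 lower fibrillar chains were called under all 16 alternative settings.

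The summed meningeal and fibroblast markers given above were 3.21-fold lower in diencephalon, and 4.87-fold lower without Igf2, their most abundant gene. Dcn, a collagen-binding proteoglycan of fibroblasts, had 46.8, 30.1 and 32.4 CPM in diencephalon and 83.3, 116.1 and 63.4 CPM in cortical grey matter. The part of these cells in the lower collagens, laminins and Fbln1 was not tested. Pericyte and smooth muscle markers summed to 75.4 to 106.2 CPM in diencephalon and 124.2 to 133.1 CPM in cortical grey matter, with 1 higher and 2 lower of 4 tested of 10, and Cnn1 had no count in either region. The list did not move as 1: Myh11 averaged 1.17 CPM in diencephalon and 22.8 CPM in cortical grey matter, and Anpep 7.39 and 33.6 CPM. Notch3 was higher in diencephalon, at 37.5 and 15.5 CPM. Pdgfrb, the most abundant of the list, did not pass (32.2 and 43.0 CPM, edgeR adjusted p = 0.12). Endothelial markers summed to 42.2 to 50.2 CPM in diencephalon and 57.6 to 85.7 CPM in cortical grey matter, with 1 lower of 3 tested of 12. That sum rests on Cdh5, the 1 called, without which the ratio of diencephalon to cortical grey matter was 1.04.

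Type VI collagen forms beaded filaments beside cell surfaces from the chains of Col6a1, Col6a2 and Col6a3. Col6a1 had 6.55, 1.05 and 3.66 CPM in diencephalon and 14.4, 19.2 and 9.94 CPM in cortical grey matter (log2 -1.91 ± 0.44 SE, edgeR adjusted p = 0.00225). Col6a2 had 7.49, 3.16 and 3.14 CPM in diencephalon and 16.1, 18.1 and 13.7 CPM in cortical grey matter (log2 -1.76 ± 0.38 SE, edgeR adjusted p = 0.00103). Both chains were thus lower in each diencephalon library than in any cortical one. Col6a3 did not pass, with 2.09 to 7.95 CPM in diencephalon and 5.59 to 10 CPM in cortical grey matter (edgeR adjusted p = 0.345). The value of Col6a1 depended on the first diencephalon library, without which the log2 difference was -2.60, and its limma adjusted p was 0.0664 on log2(TPM + 0.1) and 0.0633 on log2(TPM + 1) without a filter. Col26a1, grouped here with type VI, lay the other way. It had 15.9, 11.6 and 13.1 CPM in diencephalon and 5.67, 9.05 and 8.07 CPM in cortical grey matter. It did not pass (log2 0.85 ± 0.33 SE, edgeR adjusted p = 0.0602) but was called higher on the TPM scales (limma adjusted p = 0.0363 to 0.0499).

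Of the fibril-associated collagens, 2 of the 3 tested of 9 were lower in diencephalon. Col19a1, which in the mouse brain is made by interneurons, had 4.68, 2.64 and 7.32 CPM in diencephalon and 20.9, 18.6 and 18.6 CPM in cortical grey matter. It was 3.95-fold lower with no overlap (log2 -1.98 ± 0.35 SE, edgeR adjusted p = 1.55e-04), and its limma adjusted p lay between 0.051 and 0.0647 on the 3 TPM scales. Col12a1, which decorates fibrils of dense connective tissue, had 21.1, 14.2 and 13.1 CPM in diencephalon and 26.6, 30.9 and 29.2 CPM in cortical grey matter (log2 -0.83 ± 0.25 SE, edgeR adjusted p = 0.0137). Its call was lost without the second or the third diencephalon library (edgeR adjusted p = 0.0595 and 0.0773) or the second cortical one (0.0505), and on the 3 TPM scales (limma adjusted p = 0.272 to 0.335). Col9a3 did not pass. Col22a1, a collagen of tissue junctions, had no count in diencephalon and 27 counts over the cortical grey matter libraries, at least 9.26-fold lower with 3 counts over the group as the floor; it was below the filter and was singled out after its values were seen.

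Basement membrane collagens and multiplexins had no call among 4 tested of 8. Col4a1 and Col4a2, the paired chains of the common type IV trimer, start 21 bases apart on opposite strands of chromosome 8 in GRCm38.p6 (start sites 11312826 for Col4a1 and 11312805 for Col4a2). In the GRCm38 annotation the 2 genes share 22 exon bases. Col4a1 had 42.6, 35.3 and 40.8 CPM in diencephalon and 41.9, 59.1 and 42.2 CPM in cortical grey matter (edgeR adjusted p = 0.325). Col4a2 had 175.4, 222.5 and 162.5 CPM in diencephalon and 232.1, 231.6 and 477.6 CPM in cortical grey matter, where the third library stood far above the other two. It did not pass (log2 -0.74 ± 0.32 SE, edgeR adjusted p = 0.149), although the regions did not overlap, and it was called lower without a count filter (0.00451) and with limma voom (0.0257). Per length Col4a2 was at 109 ± 18.9 TPM in diencephalon and 159 ± 73.6 TPM in cortical grey matter, against 22.4 ± 1.95 and 23.4 ± 4.34 TPM for Col4a1 (SD, n = 3 each).

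Of the collagens, 2 were higher in diencephalon. Col25a1 encodes a transmembrane collagen of neurons known in the mouse for its role in motor nerve growth, and had 45.4, 68.0 and 54.4 CPM in diencephalon, against 25.7, 19.2 and 24.2 CPM in cortical grey matter. It was 2.41-fold higher with no overlap (log2 1.27 ± 0.21 SE, edgeR adjusted p = 7.88e-05), and was called under all 16 alternative settings. The subcortical neuron markers, which summed 4.49-fold higher, moved with it, and their part was not tested. Col8a1, a short-chain collagen of vessel walls and the cornea, had 24.8, 22.7 and 22.5 CPM in diencephalon and 7.85, 12.8 and 16.8 CPM in cortical grey matter (log2 0.94 ± 0.28 SE, edgeR adjusted p = 0.0155). Its call was lost without the first diencephalon library (edgeR adjusted p = 0.0529) or the first cortical one (0.108), and on log2(TPM + 1) without a filter (0.0585). All 44 collagens summed to 531 ± 36.5 CPM in diencephalon and 865 ± 132 CPM in cortical grey matter (SD, n = 3 each), a ratio of 0.614.

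**Figure D2:**
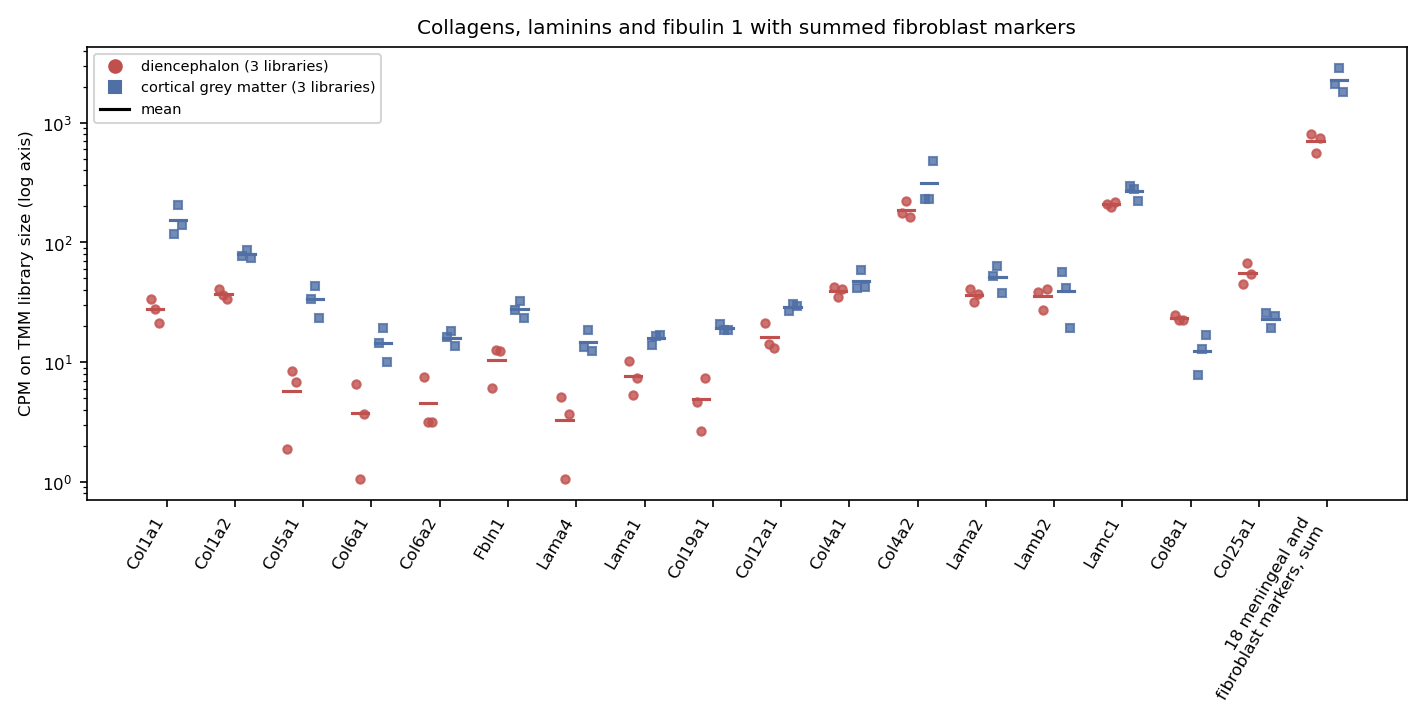
CPM on a log axis for collagens, laminins and Fbln1 in each library, with the summed CPM of the 18 meningeal and fibroblast markers on the right; red circles are the 3 diencephalon libraries, blue squares the 3 cortical grey matter libraries, and bars the group means. From Col1a1 to Col12a1 every red circle lies below every blue square, whereas Col8a1 and Col25a1 lie the other way round and Col4a1 and Lamb2 overlap; the marker sum is 563.2 to 800.0 CPM in diencephalon and 1796 to 2890 CPM in cortical grey matter.

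Laminins are trimers of an alpha, a beta and a gamma chain. Of 11 chains 7 were tested, 3 were lower in diencephalon and none was higher. Lama4, the alpha chain of vascular laminin, had 5.15, 1.05 and 3.66 CPM in diencephalon and 13.5, 18.6 and 12.4 CPM in cortical grey matter. It was 4.38-fold lower with no overlap (log2 -2.13 ± 0.43 SE, edgeR adjusted p = 5.50e-04). Lama1, the alpha chain of early embryonic and meningeal basement membranes, had 10.3, 5.27 and 7.32 CPM in diencephalon and 14, 16.5 and 16.8 CPM in cortical grey matter (log2 -1.02 ± 0.33 SE, edgeR adjusted p = 0.0220). Lamc1, the gamma chain that most laminins share, had 209.1, 198.3 and 217.4 CPM in diencephalon and 295.8, 281.1 and 223.6 CPM in cortical grey matter. Its 1.28-fold difference was small (log2 -0.36 ± 0.13 SE, edgeR adjusted p = 0.0403), and per length it stood at 102 ± 4.95 TPM in diencephalon and 114 ± 16 TPM in cortical grey matter (SD, n = 3 each).

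Lama2, the alpha chain that astrocytes place at the vessel wall, had 40.7, 31.6 and 37.1 CPM in diencephalon and 52.4, 63.4 and 37.9 CPM in cortical grey matter, and did not pass (edgeR adjusted p = 0.0741). It passed without the third cortical grey matter library (0.0103) and with the trend over gene length removed (0.0246). The beta chains Lamb1 and Lamb2 did not pass either (edgeR adjusted p = 0.348 and 0.720). Lama4 and Lama1 were lower in diencephalon alongside the fibroblast and pericyte marker sums given above, whose part was not tested. Within the pericyte list Notch3 went the other way and Pdgfrb did not pass. The laminin calls varied with the setting: Lamc1 lost its call in 9 of 16 settings, among them leaving out any library but the third cortical one (edgeR adjusted p = 0.0797 to 0.164), DESeq2 (0.0523) and the TPM scales (0.491 to 0.514). Lama1 lost it in 7 of 15, among them without the second or the third diencephalon library (0.105 and 0.0716) and without the second cortical one (0.0639), and on the TPM scales (0.254 to 0.282). With DESeq2 Lama4 was the 1 laminin called lower, and on log2(TPM + 0.1) its limma adjusted p was 0.0541.

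Fibulins and fibrillins form the microfibrils and elastic fibres. Fbln1, a fibulin of basement membranes and vessel walls, had 6.08, 12.7 and 12.5 CPM in diencephalon and 27.1, 32.5 and 23.6 CPM in cortical grey matter. It was 2.68-fold lower without overlap (log2 -1.42 ± 0.29 SE, edgeR adjusted p = 6.38e-04) and kept its call under all 16 alternative settings. Fbn1, the fibrillin of microfibrils that also store latent TGF-beta, had 48.2, 61.7 and 64.8 CPM in diencephalon and 30.5, 34.1 and 34.8 CPM in cortical grey matter. It was 1.76-fold higher (log2 0.81 ± 0.19 SE, edgeR adjusted p = 0.00212), and this call too held under all 16. In the GRCm38 annotation 20.3% of its exon bases are shared with Gm9913 on the opposite strand, and the strand setting of the counts is not given in the sources used here, so reads of the pair cannot be told apart. Fbln5, needed for elastic fibres, had 6.55, 12.7 and 18.8 CPM in diencephalon and 6.11, 7.99 and 2.48 CPM in cortical grey matter and did not pass (edgeR adjusted p = 0.0506). It was called higher in 4 of 15 alternative settings, among them those without the first diencephalon library (0.0150) and without the second cortical one (0.0401).

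Of 12 integrin alpha chains 8 were tested, 2 were higher and 2 lower in diencephalon, and of 9 beta chains 5 were tested, 1 was higher and 1 lower. Itga3, which pairs with Itgb1 as a laminin receptor, had 40.2, 91.8 and 60.6 CPM in diencephalon, against 20.1, 10.6 and 18 CPM in cortical grey matter. It was 3.90-fold higher without overlap (log2 1.96 ± 0.30 SE, edgeR adjusted p = 1.15e-04). Itga6, another laminin receptor chain, had 87.5, 62.7 and 62.2 CPM in diencephalon and 43.6, 39.9 and 34.8 CPM in cortical grey matter. It was 1.79-fold higher, again without overlap (log2 0.84 ± 0.19 SE, edgeR adjusted p = 0.00146). Itgb4, which pairs with Itga6 in hemidesmosomes, was below the filter, with 8.89, 7.38 and 3.66 CPM in diencephalon and 1.31, 4.26 and 4.35 CPM in cortical grey matter.

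Itga4, which pairs with Itgb1 to bind fibronectin and the vascular adhesion molecule VCAM, had 29.5, 26.4 and 18.8 CPM in diencephalon, against 118.2, 91.0 and 153.4 CPM in cortical grey matter. It was 4.81-fold lower (log2 -2.27 ± 0.21 SE, edgeR adjusted p = 4.32e-08), the smallest adjusted p among the 68 genes. Itga11, a receptor chain for fibrillar collagen on fibroblasts, had 1.40, 1.58 and 0.52 CPM in diencephalon and 7.85, 11.7 and 14.3 CPM in cortical grey matter. It had the largest fitted difference of the 68, 9.01-fold lower (log2 -3.17 ± 0.52 SE, edgeR adjusted p = 6.46e-05), although its counts in diencephalon were near or under the floor of 3 counts, and the value was -2.16 on the log2(TPM + 1) scale. The cortical excitatory neuron markers summed 5.90-fold lower and the fibroblast markers 3.21-fold lower in the same libraries; their part in the lower integrin chains was not tested. Itga5, Itga7, Itga8 and Itga9 did not pass.

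The common partner of these chains, Itgb1, did not pass, with 80.5, 92.8 and 78.4 CPM in diencephalon and 87.3, 95.3 and 75.2 CPM in cortical grey matter (log2 -0.04 ± 0.15 SE, edgeR adjusted p = 0.877). Per length Itgb1 stood at 76.2 ± 7.52 TPM in diencephalon and 67.7 ± 7.07 TPM in cortical grey matter, while Itga3 stood at 50.2 ± 20.7 and 11 ± 3.54 TPM and Itga4 at 9.36 ± 1.98 and 39.7 ± 10.8 TPM (SD, n = 3 each). Itga3 and Itga6 thus lay above Itga4 in diencephalon, at 50.2 and 44.1 against 9.36 TPM, and below it in cortical grey matter, at 11 and 21.4 against 39.7 TPM, without overlap of the libraries in either region.

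Itgb8 and Itgb5 both pair with Itgav. Itgb8, through which astrocytes activate latent TGF-beta, had 108.5, 95.4 and 98.3 CPM in diencephalon and 70.7, 63.4 and 50.9 CPM in cortical grey matter. It was 1.62-fold higher without overlap (log2 0.70 ± 0.16 SE, edgeR adjusted p = 0.00157). Itgb5, of the vitronectin receptor, had 47.7, 47.5 and 34.5 CPM in diencephalon and 64.6, 66.5 and 55.9 CPM in cortical grey matter. It was 1.44-fold lower (log2 -0.53 ± 0.18 SE, edgeR adjusted p = 0.0316), a call lost without the third diencephalon library (0.161) or without the first or the second cortical one (0.0877 and 0.0988) with DESeq2 (0.0568) and on the TPM scales (0.200 to 0.216). Itgav itself, whose symbol is outside the rule, averaged 115 ± 7.0 CPM in diencephalon and 146 ± 5.21 CPM in cortical grey matter (SD, n = 3 each; edgeR adjusted p = 0.0464), a call lost under DESeq2 (0.0816) and on leaving out any 1 library (0.0530 to 0.174), without a count filter (0.0672) and on the TPM scales (0.453 to 0.485). Per length Itgb8 was at 126 ± 6.83 TPM in diencephalon and 66.9 ± 11 TPM in cortical grey matter, and Itgb5 at 50.7 ± 8.54 and 63.6 ± 5.21 TPM (SD, n = 3 each).

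Itgb2, the beta chain of leukocytes and microglia, had 5.61, 12.7 and 6.79 CPM in diencephalon and 9.16, 14.9 and 31.1 CPM in cortical grey matter, highest in the third cortical library. It did not pass (edgeR adjusted p = 0.0612). In 4 of 15 alternative settings it was called lower, among them without the second diencephalon library (0.0264), without the first cortical one (0.00924) and without a count filter (0.00697). The microglia and macrophage markers summed to 299.5 to 535.2 CPM in diencephalon and 428.9 to 1016 CPM in cortical grey matter, the 1016 CPM being in that same library, with 2 of 9 tested of 10 lower; their part was not tested. All 21 integrin chains together summed to 464 ± 36.2 CPM in diencephalon and 484 ± 17.3 CPM in cortical grey matter (SD, n = 3 each), and the direction of that sum turned on TPM (log2 ratio -0.06 on CPM and 0.29 on TPM).

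**Figure D3:**
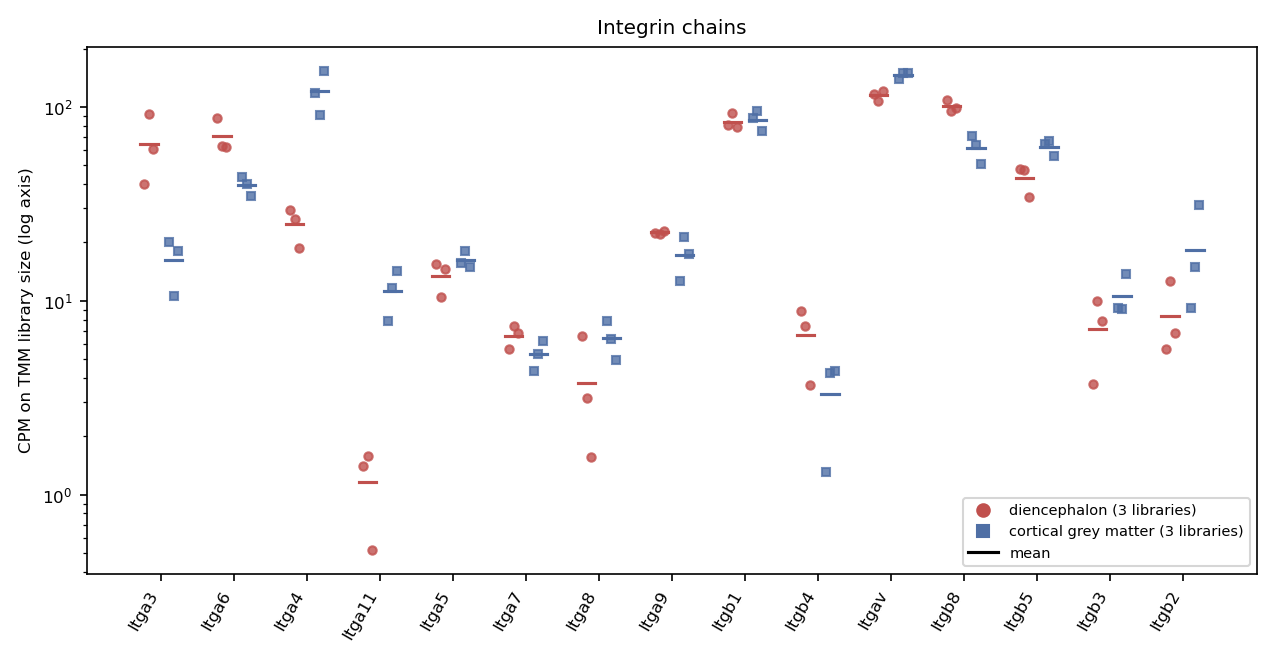
CPM on a log axis for 14 integrin chains and for Itgav in each library; red circles are the 3 diencephalon libraries, blue squares the 3 cortical grey matter libraries, and bars the group means. Itga3, Itga6 and Itgb8 are higher in all diencephalon libraries, Itga4 and Itga11 lower by the widest gaps, and Itgb1 lies at 78.4 to 92.8 CPM in diencephalon and 75.2 to 95.3 CPM in cortical grey matter.

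The ADAMTS proteases, secreted enzymes with thrombospondin repeats, had 6 genes higher and 2 lower in diencephalon among 13 tested of 19. Adamts20, a versican-cutting enzyme known from the belted pigment mutant of the mouse, had 51.5, 53.8 and 62.2 CPM in diencephalon, against 20.5, 16.5 and 20.5 CPM in cortical grey matter. It was 2.90-fold higher without overlap (log2 1.54 ± 0.20 SE, edgeR adjusted p = 4.43e-06). Adamts15, which cuts versican and related proteoglycans, had 22, 23.7 and 18.3 CPM in diencephalon and 5.24, 3.73 and 4.97 CPM in cortical grey matter. It was 4.53-fold higher, the largest upward difference of the 68 genes (log2 2.18 ± 0.32 SE, edgeR adjusted p = 2.04e-05).

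Adamts6 and Adamts10 are relatives that act on fibrillin microfibrils. Adamts6 had 7.95, 8.44 and 10.5 CPM in diencephalon and 2.18, 2.66 and 3.73 CPM in cortical grey matter (log2 1.66 ± 0.44 SE, edgeR adjusted p = 0.00601). Adamts10 had 14.5, 11.6 and 10.5 CPM in diencephalon and 4.8, 4.79 and 6.21 CPM in cortical grey matter (log2 1.22 ± 0.36 SE, edgeR adjusted p = 0.0137). Neither overlapped between regions, but the call of Adamts10 was lost without the first diencephalon library (0.0690) or the first or the second cortical one (0.0529 and 0.0505). Adamts16 had 16.4, 17.4 and 14.6 CPM in diencephalon and 6.98, 2.66 and 10.6 CPM in cortical grey matter (log2 1.28 ± 0.37 SE, edgeR adjusted p = 0.0120), a call lost without the second cortical library (0.0752) and on the TPM scales (0.0501 to 0.0673).

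Adamts2 and Adamts3 both remove the amino-terminal propeptide of fibrillar procollagens and differed in opposite directions. Adamts2 had 55.7, 38.0 and 56.4 CPM in diencephalon and 28.4, 19.2 and 34.8 CPM in cortical grey matter. It was 1.83-fold higher without overlap (log2 0.88 ± 0.23 SE, edgeR adjusted p = 0.00522), while Col1a1, Col1a2 and Col5a1, chains of procollagens that it cuts, were lower in the same libraries. Adamts3 had 73.9, 35.9 and 38.2 CPM in diencephalon and 67.2, 90.5 and 76.4 CPM in cortical grey matter, so that the first diencephalon library lay inside the cortical range. Its call (log2 -0.65 ± 0.23 SE, edgeR adjusted p = 0.0472) was lost without the second or the third diencephalon library (0.170 and 0.192) or the second or the third cortical one (0.160 and 0.109), and on the TPM scales (0.227 to 0.257). Their close relative Adamts14 was below the filter.

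Adamts17, another enzyme of fibrillin matrix, had the highest level of its family per length, at 108 ± 8.41 TPM in diencephalon and 122 ± 26 TPM in cortical grey matter (SD, n = 3 each). It had 172.2, 187.2 and 161.0 CPM in diencephalon and 200.3, 198.6 and 278.9 CPM in cortical grey matter, and its difference was small (log2 -0.38 ± 0.14 SE, edgeR adjusted p = 0.0483) and was lost in 11 of 16 alternative settings. Without the third cortical library neither Adamts3 nor Adamts17 was called. Adamts9 did not pass (25.7, 32.7 and 19.3 CPM in diencephalon, 20.5, 14.4 and 12.4 CPM in cortical grey matter; edgeR adjusted p = 0.0563), but was called higher without the third diencephalon library (0.0374), without the first cortical one (0.0313) and without a count filter (0.0499). The oligodendrocyte and subcortical neuron marker sums were also higher in diencephalon, 2.20-fold and 4.49-fold. So was the ependymal and choroid plexus sum, 7.21-fold, or 4.58-fold without Ttr, its most abundant gene. The part of these cells in the ADAMTS differences was not tested.

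Of the 23 MMPs, 11 had no count in any library and 5 were tested, all of them membrane-type enzymes held at the cell surface. Mmp24, a membrane-type MMP of the nervous system, had 37.4, 44.3 and 43.9 CPM in diencephalon and 24.9, 23.4 and 17.4 CPM in cortical grey matter. It was 1.89-fold higher without overlap (log2 0.92 ± 0.21 SE, edgeR adjusted p = 0.00205); 14.8% of its exon bases in the GRCm38 annotation are shared with BC029722 on the opposite strand, and those reads cannot be told apart without the strand. Mmp17, anchored by a lipid tail, had 26.7, 38.0 and 28.2 CPM in diencephalon and 63.7, 84.1 and 78.9 CPM in cortical grey matter. It was 2.44-fold lower without overlap (log2 -1.29 ± 0.19 SE, edgeR adjusted p = 2.07e-05). The calls of Mmp24 and Mmp17 held under all 16 alternative settings.

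Mmp16 and Mmp14 had the highest MMP levels per length. Mmp16 stood at 101 ± 6.63 TPM in diencephalon and 73.1 ± 3.79 TPM in cortical grey matter, and Mmp14, an activator of other MMPs, at 90.5 ± 18.5 and 58.9 ± 24.4 TPM (SD, n = 3 each). Neither passed on counts (edgeR adjusted p = 0.139 and 0.285), although the regions did not overlap for Mmp16, at 113.9 to 129.7 CPM in diencephalon and 99.0 to 106.2 CPM in cortical grey matter. Mmp16 was called higher on the TPM scales (limma adjusted p = 0.0299 to 0.0308). Mmp15 had 18.2, 19.5 and 12 CPM in diencephalon and 7.42, 17 and 3.73 CPM in cortical grey matter (log2 0.80, edgeR adjusted p = 0.132). Without the second cortical library its log2 difference was 1.5 and passed (0.00910). The secreted gelatinases were barely seen, with 3.69 to 5.75 CPM for Mmp2 and 0.47 to 1.05 CPM for Mmp9 in diencephalon, against 1.60 to 3.73 CPM for Mmp2 and 0.00 to 0.44 CPM for Mmp9 in cortical grey matter; a count of 3 equals 1.31 to 1.86 CPM in these libraries.

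The TIMPs held the top 2 places by TPM among the 132 genes, and none of the 3 tested passed. Timp3, the inhibitor that stays bound to matrix, stood at 500 ± 25.2 TPM in diencephalon and 404 ± 80.2 TPM in cortical grey matter (SD, n = 3 each). In CPM it had 654.0, 579.0 and 620.9 in diencephalon and 592.1, 688.4 and 445.3 in cortical grey matter, with the regions overlapping (log2 0.10 ± 0.14 SE, edgeR adjusted p = 0.635). Timp2, which also helps Mmp14 to activate Mmp2, stood at 218 ± 24 TPM in diencephalon and 221 ± 27.3 TPM in cortical grey matter, and did not pass (log2 -0.22 ± 0.13 SE, edgeR adjusted p = 0.211). Timp4 did not pass (edgeR adjusted p = 0.308), and Timp1, which rises in injured brain, was below the filter. A p that misses the threshold does not show equal levels.

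**Figure D4:**
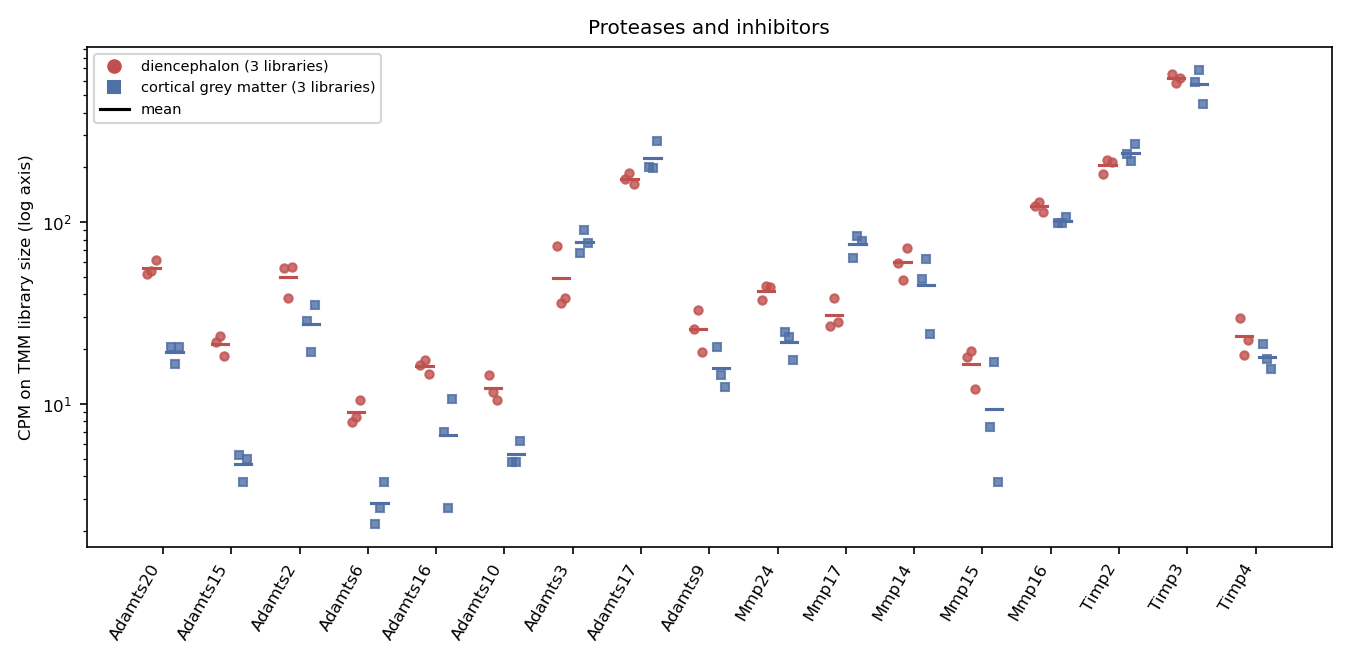
CPM on a log axis for ADAMTS proteases, MMPs and TIMPs in each library; red circles are the 3 diencephalon libraries, blue squares the 3 cortical grey matter libraries, and bars the group means. The first 6 ADAMTS genes and Mmp24 lie higher in every diencephalon library, Mmp17 lies lower at 26.7 to 38.0 CPM against 63.7 to 84.1 CPM, and the TIMPs overlap.

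Ranked by TPM over all libraries, the highest of the 132 genes were Timp3, Timp2, Col4a2, Adamts17, Lamc1, Itgb8, Mmp16, Mmp14, Itgb1 and Col1a1. The order differed between regions for some of these: Col1a1 had 22.3 TPM in diencephalon and 108 TPM in cortical grey matter, whereas Itgb8 had 126 and 66.9 TPM. The 4 genes matched by name only gave 1 call: Col4a3bp, a ceramide carrier, had 54.7, 70.7 and 89.9 CPM in diencephalon and 44.5, 40.5 and 42.2 CPM in cortical grey matter (log2 0.75 ± 0.19 SE, edgeR adjusted p = 0.00420). It did not pass without the third diencephalon library (0.0515).

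**Figure D5:**
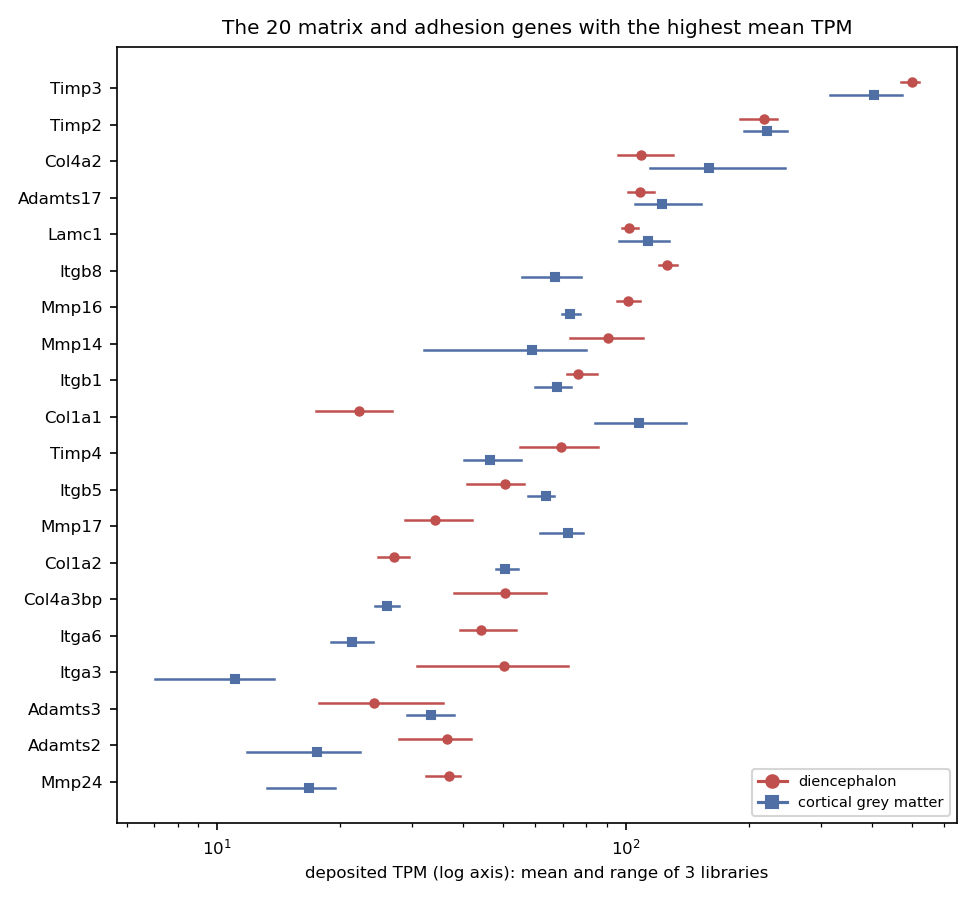
Deposited TPM on a log axis for the 20 genes with the highest mean TPM, from Timp3 at the top; red circles and blue squares are the means of the 3 diencephalon and the 3 cortical grey matter libraries, and lines run from the lowest to the highest library. Timp3 leads in both regions at 500 and 404 TPM, and the widest gaps are those of Col1a1, lower in diencephalon, and Itga3, higher in diencephalon.

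Genes that work with these families but fall outside the symbol rule were read from 7 lists. For comparison, 29.6% of all 10568 genes tested were called. Of 28 basement membrane and linker glycoproteins, 16 were tested, 3 were higher and 5 lower in diencephalon. Fn1, fibronectin, the ligand of Itga4, averaged 8.16 ± 1.87 CPM in diencephalon and 34.7 ± 8.90 CPM in cortical grey matter (log2 -2.06 ± 0.29 SE, edgeR adjusted p = 8.55e-06). Efemp1, a relative of the fibulins under another symbol, averaged 20.4 ± 7.37 and 121 ± 44.5 CPM (log2 -2.55 ± 0.29 SE, edgeR adjusted p = 2.60e-05). Frem1, of the embryonic basement membrane, was higher, at 16.6 ± 1.04 CPM in diencephalon and 6.67 ± 2.20 CPM in cortical grey matter (log2 1.28 ± 0.33 SE, edgeR adjusted p = 0.00492; SD over n = 3 each in these sentences), and its limma adjusted p lay between 0.0589 and 0.0711 on the TPM scales.

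Of 20 tenascins, thrombospondins and lectican matrix genes, 14 were tested, 2 were higher and 5 lower. Sparc, a collagen-binding protein secreted by glia, averaged 6605 ± 1264 CPM in diencephalon and 1178 ± 244 CPM in cortical grey matter (SD, n = 3 each; log2 2.49 ± 0.18 SE, edgeR adjusted p = 1.35e-09). Hapln1, the link protein of hyaluronan nets, averaged 38.1 ± 8.99 and 182 ± 37.8 CPM (log2 -2.25 ± 0.18 SE, edgeR adjusted p = 7.36e-09). Cspg5, a brain proteoglycan, averaged 55.7 ± 12.5 and 159 ± 8.0 CPM (log2 -1.51 ± 0.16 SE, edgeR adjusted p = 1.75e-07).

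Of 26 genes listed for collagen biosynthesis and crosslinking, 25 had their symbol in the data. Of these 17 were tested, 4 were higher and 1 lower. That is 29.4% called, close to the 29.6% of all genes tested. Plod2 and Plod1, lysyl hydroxylases that prepare collagen for crosslinks, averaged 59.1 ± 6.38 and 38.9 ± 2.20 CPM in diencephalon, against 22.9 ± 3.60 and 24.3 ± 5.59 CPM in cortical grey matter (log2 1.38 ± 0.20 and 0.67 ± 0.21 SE, edgeR adjusted p = 1.49e-05 and 0.0214). The call of Plod1 was lost with DESeq2 (0.0506) and on leaving out the second or the third diencephalon or the first or the third cortical library (0.0624 to 0.0776). Pcolce, which speeds procollagen processing, was the lower one, at 8.94 ± 3.21 CPM in diencephalon and 38.5 ± 14.1 CPM in cortical grey matter (log2 -2.09 ± 0.31 SE, edgeR adjusted p = 2.10e-05; SD, n = 3 each).

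Downstream of integrins, 19 of 22 adhesion machinery genes were tested, with 2 higher and 6 lower (42.1% of those tested). Actn1 and Actn4, the alpha-actinins that tie adhesions to actin, averaged 8.93 ± 4.17 and 69.2 ± 4.84 CPM in diencephalon, against 97.9 ± 25.1 and 254 ± 49.9 CPM in cortical grey matter (log2 -3.46 ± 0.29 and -1.87 ± 0.15 SE, edgeR adjusted p = 5.29e-08 and 4.45e-09). Ptk2b, an adhesion kinase abundant in forebrain neurons, averaged 18.3 ± 6.07 and 72.6 ± 5.49 CPM (log2 -1.98 ± 0.22 SE, edgeR adjusted p = 4.02e-07; SD, n = 3 each). The cortical excitatory neuron markers were lower with them, 10 of 10, and their part was not tested. Of the 6 integrin chains outside the rule only 2 were tested, and Itgav, given above, was the 1 called.

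Of 26 ADAM proteases, ADAMTS-like proteins and protease regulators, 16 were tested, 5 were higher and none lower. That is 31.2% called, close to the 29.6% of all genes tested. A2m, a broad protease inhibitor that also traps ADAMTS enzymes, averaged 39.0 ± 6.89 CPM in diencephalon and 8.10 ± 5.05 CPM in cortical grey matter (log2 2.25 ± 0.31 SE, edgeR adjusted p = 9.65e-06), and 2.85 on the log2 scale without the second cortical library. Adam15 and Adam22, a membrane protease and a synaptic receptor without protease activity, averaged 51.1 ± 1.18 and 340 ± 10.2 CPM in diencephalon, against 29.8 ± 6.69 and 255 ± 38.7 CPM in cortical grey matter (edgeR adjusted p = 0.00532 and 0.0165). Adam22 lost its call on leaving out the second or the third diencephalon or the first or the second cortical library (0.0540 to 0.105) and with the trend over gene length removed (0.0635).

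Of 9 collagen receptors other than integrins, 8 were tested, 1 was higher and 2 lower (37.5% of those tested). Gpr56, an adhesion receptor for type III collagen, averaged 321 ± 5.79 CPM in diencephalon and 191 ± 51.1 CPM in cortical grey matter (log2 0.74 ± 0.16 SE, edgeR adjusted p = 0.00111). Ddr2, a kinase activated by fibrillar collagen, averaged 9.40 ± 1.40 and 34.5 ± 4.02 CPM (log2 -1.86 ± 0.25 SE, edgeR adjusted p = 6.40e-06). Cd44, the hyaluronan receptor, averaged 10.7 ± 3.09 and 22 ± 6.36 CPM (log2 -1.06 ± 0.30 SE, edgeR adjusted p = 0.0102; SD, n = 3 each), a call lost without the third diencephalon or second cortical library (0.0567 and 0.0628) and on the TPM scales (0.135 to 0.171).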

How the data were processed

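Ribosome-bound mRNA of astrocytes was purified, amplified with the Ovation RNA-Seq System v2 and sequenced on an Ion Proton instrument, per the labels' protocols. The labels name no molecular identifiers, and floors therefore cover counting error only. The authors' counts came from RSEM on mm9, per the submitters' processing notes; aligner, versions and strandedness were not given in the sources used here.

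The deposited files give, per gene, the expected count, which RSEM estimates by sharing reads between transcripts (between 3.64% and 3.99% of each library's values had a fractional part), and the deposited TPM and FPKM, which the authors' program scales by effective length and library total. Gene lengths are also deposited and served in 1 alternative. TPM gave levels per length and alternatives; FPKM was not used further. Rn45s, a ribosomal RNA precursor, held 1.77% to 4.48% of counts and was kept.

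Expected counts were rounded, filtered with filterByExpr (minimum count 10, leaving 10568 genes), given TMM factors and tested with edgeR's robust quasi-likelihood test (edgeR 4.0.16, limma 3.58.1, R 4.3.3), region being the only term, with Benjamini-Hochberg adjustment over all genes tested with a threshold of 0.05. The common biological coefficient of variation came to 13.6%, and the steps were tested on simulated data. SEs come from the F statistic, changes beyond 1.5-fold from glmTreat, and floors are 3 counts. Alternatives were RLE factors, no filter, a minimum count of 30, DESeq2 1.42.0, voom, TPM with pseudocounts 1 and 0.1 (mean TPM of at least 1, or no filter), a replicate block, a length trend removed (spline with 5 degrees of freedom) and leaving out each library. A log2 difference on a TPM scale is of TPM plus the pseudocount and understates low genes. Sums of levels got no test.

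The genes, families and lists were chosen with earlier results of these data known. Genes were named in each family by a rule: up to 6 past the threshold in each direction, the 2 of highest TPM and their partner chains. Up to 3 were named per list. Col22a1, Itgb2, Mmp15, Col3a1, Adamts9, Mmp2 and Mmp9 were added after values were seen. So were genes listed only as not passing or below the filter, except Col9a3, Lamb1 and Lamb2. Col23a1, Fbn2 and Itgb1bp1, which did not pass, and Col8a2 and Lamc3, below the filter, also met the rule. Their values are not given. Replicates are pools of 3 mice. Sequences come from RefSeq tables of GRCm38.p6, matched by symbol, and exon overlaps from the GENCODE annotation of GRCm38; no protein sequence was used here, and the sequences have no part in the counts.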

Additional observations from a re-analysis of the deposited data

How the results depend on the processing

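Of the 31 genes called, 18 were called in every one of up to 16 alternatives that tested them, 10 higher and 8 lower in diencephalon, and no named gene changed direction past the threshold. The number higher, 14, ran from 11 to 16. The number lower, 17, became 11 with a minimum count of 30, where 36 of the genes were tested, 10 with limma on log2(TPM + 1), 8 on log2(TPM + 0.1) and 10 on log2(TPM + 1) without a filter; it became 23 without a count filter, where 115 were tested. The TPM scales tested 92 of the 132 genes, and 115 without a filter, against 68 in the main test. On these TPM scales the median of all genes was 0.21 to 0.23 (log2), and the cause of the smaller number was not tested. Over all genes the split was 2097 higher and 945 lower of 14296 tested on log2(TPM + 1). In the counts it was 1574 and 1559 of 10568 tested. Leaving out each library in turn gave 13 to 14 higher and 12 to 19 lower genes of 71 to 75 tested. Over all genes these fits called 1145 to 1681 higher and 1186 to 1692 lower of 10881 to 11063 tested. With the replicate block, 14 were higher and 17 lower, and 3037 of all genes were called against 3133. Deviations of same-numbered libraries correlated at 0.11, -0.21 and 0.01 over genes with a mean of at least 20 CPM, and the first and second diencephalon libraries correlated best with another number (0.27 and 0.29), so the numbers were not taken as pairs. Under the block Adamts17 and Itgav lost their calls (Itgav edgeR adjusted p = 0.0519) and Itgb2 gained one (edgeR adjusted p = 0.0446). With 1733145 to 2334237 counts a library, 64 of the 132 genes were below the count filter and were not tested. The strand setting is unknown, which leaves Fbn1, Mmp24 and Itgb1bp1 shared with opposite-strand genes.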
